A study of Mus musculus with 2 samples.

Results

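The integrin and laminin genes were followed across a wild type and a Drp1 knockout mouse liver profiled on 1-colour Agilent arrays. Members were chosen by name alone: every gene probe on both arrays whose gene name in the files begins with Itga, Itgb, Lama, Lamb or Lamc and a digit, or consists of Itga or Itgb and a single letter. This took 60 probes of 42 genes, out of 39429 gene probes on the array. They comprise 27 integrin subunits, 11 laminin chains and 4 genes named only for the integrin tails that their proteins bind. Each group held 1 array of total RNA from the liver of male C57BL/6J mice, and the labels do not say whether an RNA came from 1 mouse or several. From an age of 4 weeks, both groups had eaten chow rich in lard (24% fat, 45% of energy) for 24 weeks. The wild type differed from the knockout, by the labels, only in Drp1, the GTPase encoded by Dnm1l that divides mitochondria. The series title places the disruption in the liver, but the driver of the deletion, the deleted part of the gene and the feeding state at sampling are not given in the sources used here. Since each group was a single array, no test was possible, and every difference below compares these 2 arrays, not the conditions.

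Integrins are receptors made of an alpha and a beta chain that bind matrix proteins or other cells outside and the actin skeleton inside. Laminins are heterotrimers of an alpha, a beta and a gamma chain that build the basement membrane and are themselves integrin ligands. In liver, hepatocytes face the sinusoid across a space with little basement membrane, whereas bile ducts and larger vessels rest on a laminin layer, and resident and incoming leukocytes carry their own integrins.

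A level is a probe's processed signal as a multiple of the 75th percentile of all gene spots on its own array, and a difference is the log2 level in the knockout minus that in the wild type. A probe counts as measured on an array where the scanner software marked it well above background. Each member probe was printed as 1 spot, and 0 of these spots was marked as an outlier or saturated. Repeated spots of other probes gave an SD of 0.14 log2 units for a difference, which covers spot error only and not the spread between animals. Levels are compared between arrays for the same gene, never between genes, because probes differ in brightness. Where levels of a marker list are summed, the brightest probes carry the sum, which is no measure of the list as a whole. The 10 hepatocyte markers were all measured on both arrays, with 3 at least 1.5-fold higher and 2 lower (median -0.11). Dnm1l read 2.03 in the wild type and 1.75 in the knockout, a difference of -0.21, which does not check the label since the deleted part is unknown. That percentile was a signal of 461 for the wild type and 722 for the knockout.

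Of the 42 members, 29 were measured on both arrays, 4 on the knockout array alone and 9 on neither. The 9 below background on both were Itga2 and Itga11 (collagen receptors), Itgad, Itgae and Itgb2l (leukocyte subunits), Itgb6 and Itgb8 (epithelial and mesenchymal partners of alphaV), and Itgb1bp2 and Itgb1bp3. By probe, 61.7% of the members were well above background in the wild type and 73.3% in the knockout, against 50.5% and 57.1% of all probes.

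Among the 29, the leukocyte subunits Itgax and Itgb2, the receptor chains Itga4, Itga6 and Itga8, and the laminin chains Lama2 and Lamb1 were higher in the knockout by at least 1.5-fold. Itga7, Itgam and Lamb3 were lower by as much. The other 19 lay within 1.5-fold. These 7 higher members make 24.1% of those measured, against 8.42% of all 15385 genes measured on both arrays, and the 3 lower members 10.3% against 13.4%. At 2-fold, 2 members (6.90%) were higher against 2.91% of all genes, and 0 were lower against 3.64%. Of the 29 members, 23 lay below the median level of all genes, so these shares compare sets of unlike brightness. The members had a median difference of 0.07, from -0.88 to 1.22, where all genes had a median of -0.11. Scaled to the E1A spike-in spots instead, the median of all genes moved up by 0.78, and 24 members were then at least 1.5-fold higher and 0 lower, as were 58.1% and 1.36% of all genes. Directions below are therefore relative to the bulk of genes on each array. With normexp background correction, 3 members were higher and 3 lower, beside 4.28% and 9.52% of all genes. With a stricter filter on dim probes, 3 of 19 members were higher and 3 lower, beside 5.7% and 11% of all genes. Lama2, Itgax and Itga4 had no value under that filter.

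**Figure D1:**
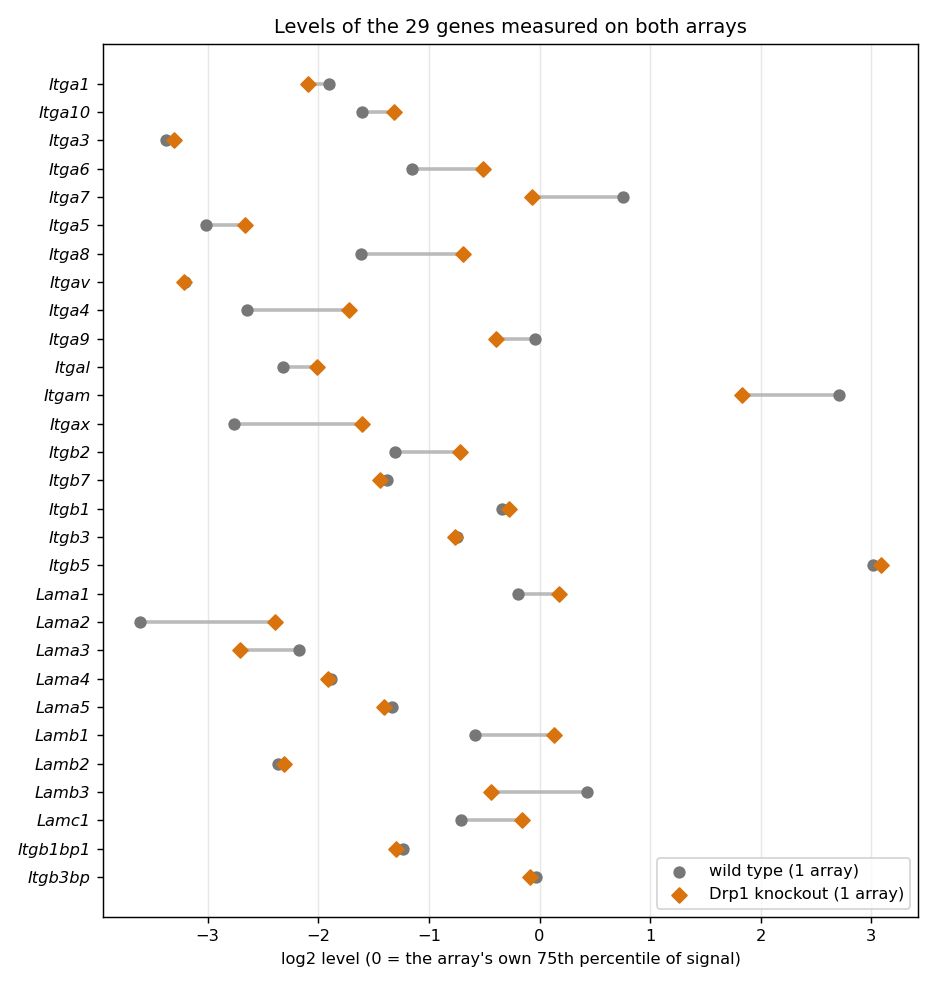
Log2 level of the 29 members measured on both arrays (x axis, 0 at the array's 75th percentile), grouped by role, with a grey circle for the wild type and an orange diamond for the knockout. The widest gaps are those of Lama2 and Itgax, with the knockout to the right, and Itgam, Lamb3 and Itga7 have the knockout to the left; positions of different genes are not comparable.

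**Figure D2:**
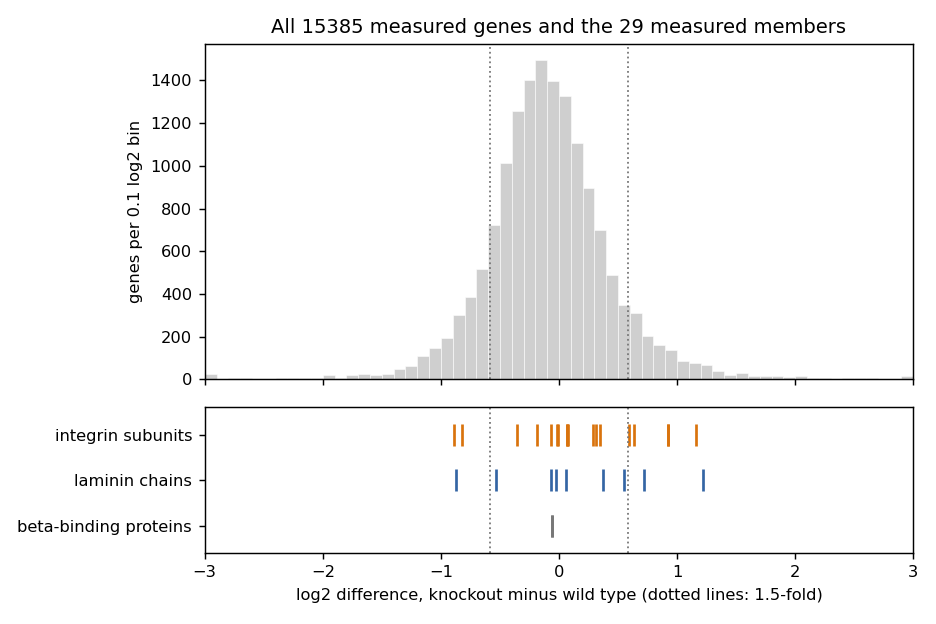
Histogram of the log2 differences of all 15385 measured genes in bins of 0.1 (upper panel, the end bins holding all genes beyond the axis), with the 29 members as ticks (lower panel). Members run from -0.88 to 1.22, inside the range of the bulk, and 10 of them lie outside the dotted 1.5-fold lines.

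Leukocyte integrins pair a specific alpha chain with the beta2 chain encoded by Itgb2, or with beta7. Itgb2 read 0.404 in the wild type and 0.608 in the knockout, 1.51-fold higher (0.59), just past the 1.5-fold line. Itgax, the alphaX chain found on dendritic cells and many macrophages, read 0.147 and 0.329, a difference of 1.16 or 2.23-fold. Itgal, the alphaL chain of LFA-1 on lymphocytes, read 0.200 and 0.249. Its 2 probes measured on both arrays gave 0.30 and 0.33, within the 1.5-fold lines. Itgb7, the beta chain of the gut-homing receptor, read 0.385 and 0.368 (-0.06). Itga4, which pairs with beta1 or beta7 and binds Vcam1, read 0.160 and 0.303 (0.92, 1.90-fold higher) by 1 probe, while its other probe was below background on both arrays. With both Itga4 probes counted, its difference was 0.02. Itga9, which is close to Itga4 in sequence, read 0.974 and 0.763 (-0.35). The leukocyte subunits did not share a direction on these arrays.

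Itgam, the alphaM chain of Mac-1 on neutrophils, monocytes and macrophages, had 3 probes that disagreed, and 2 of them are shown because a gene value rests on which probe is read. The probe at transcript position 4431 (chr7:135261755-135261814, mm9) was the only one measured on both arrays. It read 6.55 in the wild type and 3.55 in the knockout, 1.85-fold lower (-0.88). The probe at position 3410 (chr7:135260275-135260334), whose letters code for the start of the membrane-spanning segment, read 0.534 in the wild type and was not well above background in the knockout at 0.0342. Against the lowest level marked well above background on the knockout array (0.0368), it was 14.5-fold lower. That level is a convention and not this spot's own limit. The probe at position 270 (chr7:135212140-135212199) passed background in the knockout only, at 0.0450 against 0.0357, too dim for a bound. Positions are those that the array's design gives.
Itgam at 270: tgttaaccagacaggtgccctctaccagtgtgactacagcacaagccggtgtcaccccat
Itgam at 3410: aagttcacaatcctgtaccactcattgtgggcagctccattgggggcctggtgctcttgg

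The wild type spot of the Itgam probe at 3410 had 10 bright pixels left out by the scanner software, against 2 for the knockout spot. Only 12 of 43020 gene spots (0.0279%) on the wild type array had 10 or more. Its remaining 55 pixels had a mean of 367 with an SD of 105, and neither array's spot was marked as an outlier. Before scaling, that mean of 367 stood over a local background of 64.5. The knockout spot had a mean of 119.5 over 69. The part of these pixels in the difference was not tested. Neutrophil markers moved beside Itgam: of 8, 5 were measured, 4 were at least 1.5-fold lower and 0 higher, with Retnlg 3.02-fold, S100a9 2.16-fold and S100a8 2.06-fold lower. Their summed level was 4.92 in the wild type and 2.59 in the knockout, and Ngp, Ltf and Mpo were below background on both arrays. Kupffer cell and macrophage markers had 3 of 10 higher and 0 lower (median 0.21), led by Marco at 3.14-fold, Lyz2 at 2.59-fold and Cd68 at 1.55-fold, with summed levels of 79.5 and 99.8. Clec4f, a defining Kupffer cell marker named after its value was seen, differed by -0.16. Of 8 T and NK cell markers, 5 were measured, 2 were higher (Cd3d and Gzma), and 1 was lower (Cd3e). Of 5 dendritic cell markers, 2 were measured, Clec9a at 0.44 and Siglech at -0.79, and Xcr1 was below background on both arrays. In whole liver RNA, fewer cells of a type and less RNA per cell cannot be told apart, and the part of cell numbers in the leukocyte integrin values was not tested.

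The genes of Itgam, Itgax and Itgad lie side by side on chromosome 7, with probes at chr7:135261755-135261814, chr7:135294052-135294111 and chr7:135348901-135348960 (mm9). Their values did not follow their neighbourhood: Itgam was lower by its measured probe, Itgax higher, and Itgad below background on both arrays.

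**Figure D3:**
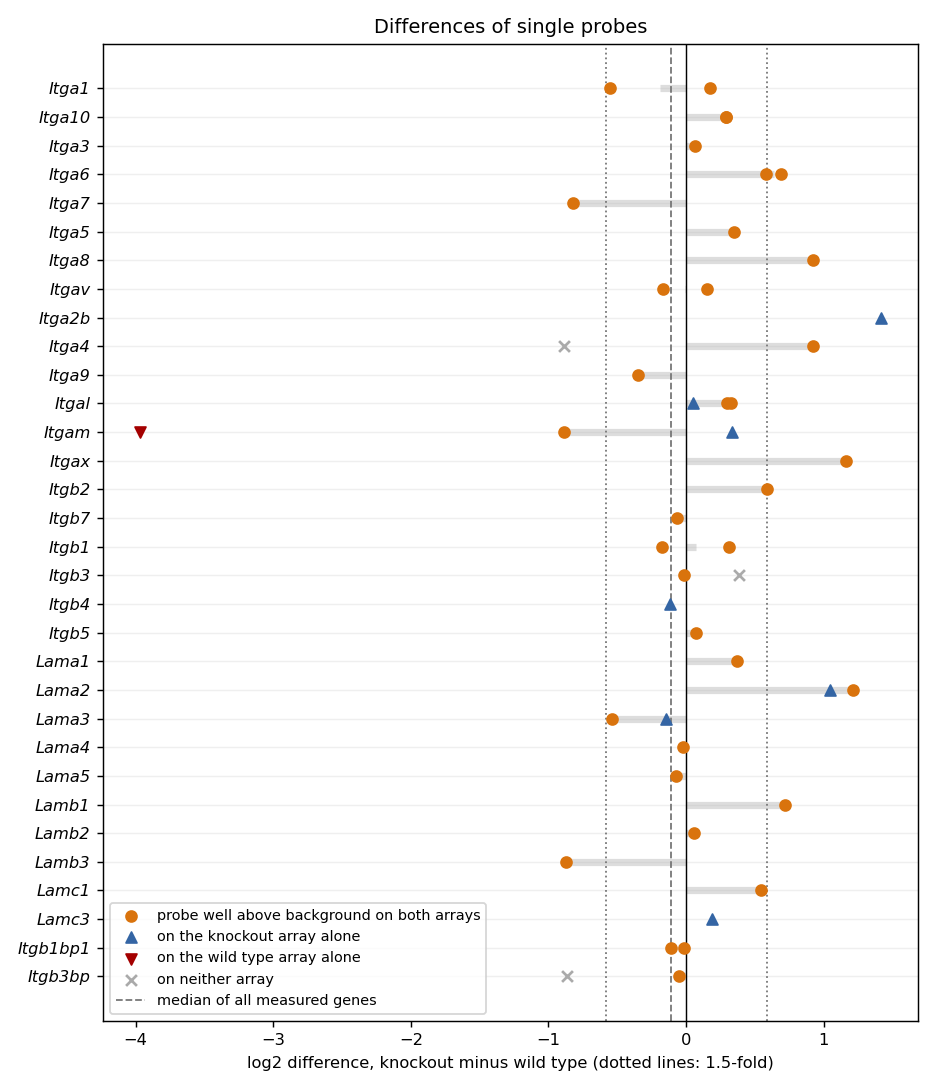
Log2 difference of the probes of members with a signal on at least 1 array (x axis), with symbols for the arrays on which the probe was well above background and grey bars for the gene's value. The 3 Itgam probes spread from -3.97 to 0.34, while both probes of Itga6, Itga10 and Itgal that were measured on both arrays coincide closely.

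Among alpha chains that bind matrix, the laminin receptors went both ways. Itga6, a receptor chain for laminin on epithelium and endothelium, read 0.451 in the wild type and 0.701 in the knockout (0.64, 1.55-fold higher), and its probes 0.58 and 0.69 were of the same sign. Itga7, the main laminin receptor chain of striated muscle, read 1.68 and 0.952 (-0.82, 1.77-fold lower). Itga3 was near equal at 0.0965 and 0.101 (0.07). Skeletal muscle markers stood beside Itga7: of 9, 7 were well above background in the wild type alone, Tnni2 was 18.2-fold lower in the knockout, and Mylpf was below background on both. Itgb1bp2, whose product melusin is made in striated muscle, was below background on both arrays. The part of muscle RNA in the Itga7 value was not tested.

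Of the chains that recognise the RGD sequence in fibronectin, vitronectin and related ligands, Itga8 stood out, with levels of 0.327 and 0.618 (0.92, 1.89-fold higher). Itga8, the nephronectin receptor chain, is found on hepatic stellate cells. Itga5, the fibronectin receptor chain, read 0.124 and 0.158 (0.35). Itgav, whose dimers release active TGF-beta, read 0.108 on both arrays, with probes at -0.17 and 0.16. Itga2b, the platelet fibrinogen receptor chain, was well above background in the knockout alone at 0.0514, too dim for a bound, and 3 of 6 platelet markers were measured, with Gp1bb at -0.84, Ppbp at -0.24 and Pf4 at 0.39. The collagen receptor chains measured on both arrays lay within 1.5-fold. Itga10 read 0.329 and 0.403, and its probes gave 0.29 each, but they share 54 of their 60 bases and so do not check each other. Itga1 read 0.268 and 0.235 (-0.19) as a mean of probes that disagreed in sign.

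The beta chains outside leukocytes differed little. Itgb1, the partner of most matrix-binding alpha chains, read 0.789 and 0.827 (0.07). Itgb5, which pairs with alphaV, read 8.09 and 8.51 (0.07), and Itgb3, its relative in the vitronectin receptor, 0.595 and 0.588 (-0.02). Itgb4, the hemidesmosome chain that pairs with alpha6, was well above background in the knockout alone (0.0494 against 0.0535 in the wild type), without a bound.

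The Itga1 and Itgb1 probes are shown because each gene's near-zero value averages probes of opposite sign. Itga1 gave -0.55 at position 683 (chr13:115821387-115825525, mm9) and 0.18 at position 3710 (chr13:115756765-115758419). Itgb1 gave -0.17 at 1840 (chr8:131246349-131246408) and 0.31 at 2631 (chr8:131250081-131255976). Intervals longer than the 60 bases of a probe span an intron, as 8 of the 60 member probes do. The Itgb1 probe at 2631 codes for the cytoplasmic tail. Its capitals mark the 2 in-frame codon runs for asparagine, proline, any residue and tyrosine, the motifs that bind talin and kindlin. Across all 3357 genes with several measured probes the median gap between probes was 0.27, and 10% had gaps above 0.83. The gaps of 0.73 for Itga1 and 0.49 for Itgb1 lay between these.
Itga1 at 683: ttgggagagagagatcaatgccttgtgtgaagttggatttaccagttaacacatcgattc
Itga1 at 3710: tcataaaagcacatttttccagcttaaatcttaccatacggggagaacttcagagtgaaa
Itgb1 at 1840: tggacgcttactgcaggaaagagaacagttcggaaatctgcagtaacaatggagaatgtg
Itgb1 at 2631: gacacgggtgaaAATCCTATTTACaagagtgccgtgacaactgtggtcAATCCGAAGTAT

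All 11 laminin chains had a signal on at least 1 array, with 9 measured on both, 2 higher by 1.5-fold, 1 lower and 6 within. Lamb1, the beta chain of many laminins, read 0.667 in the wild type and 1.1 in the knockout (0.72, 1.64-fold higher). Lamc1, the most widely used gamma chain, read 0.612 and 0.894 (0.55, 1.46-fold, within the line). Of the alpha chains that join them, Lama2 was the highest in difference, at 0.0820 in the wild type and 0.190 in the knockout (1.22, 2.32-fold). Its other probe was well above background in the knockout alone and at least 1.64-fold higher. Lama1, the chain of embryonic and some adult basement membranes, read 0.874 and 1.13 (0.37). The vascular chains Lama4, at 0.270 and 0.266, and Lama5, at 0.397 and 0.378, differed by -0.02 and -0.07. Lamb2, which replaces Lamb1 in some trimers, read 0.194 and 0.201 (0.06).

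Lama3 and Lamb3 encode chains of the epithelial laminin that anchors hemidesmosomes, and both read lower in the knockout, although Lama3 turned to 0.24 under spike-in scaling. Lamb3 read 1.35 in the wild type and 0.736 in the knockout (-0.87, 1.83-fold lower), and Lama3 0.222 and 0.153 (-0.54, 1.45-fold lower, within the line). Lamc3, a gamma chain, passed background in the knockout only, at 0.0591, without a bound. Markers of bile duct cells, which rest on laminin, had 5 of 6 measured members higher and 0 lower (of 9 listed), with Anxa13 5.21-fold, Sox9 2.37-fold and Cdh1 2.01-fold higher and summed levels of 0.762 and 1.69. Cftr, a marker on the same list named after its value was seen, was well above background in the wild type alone and at least 2.21-fold lower, and Epcam was below background on both arrays. The part of bile duct cells in the laminin values was not tested.

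Stellate cell and fibroblast markers had 7 of 10 higher and 1 lower (median 1.06), led by Col1a1 at 3.19-fold, Pdgfra at 3.06-fold and Lum at 2.79-fold, with summed levels of 48.0 and 71.3. Of these sums, Dcn, which lay within 1.5-fold, made up 44.6 in the wild type and 63.0 in the knockout. Endothelial markers had 2 of 10 higher and 0 lower (median 0.13), namely Lyve1 at 1.91-fold and Pecam1 at 1.78-fold, with summed levels of 46.0 and 43.6. Lama2, Lamb1, Itga8 and Itga4 were higher beside these stellate cell markers, but they were picked because they were higher. Itga4 differed by 0.02 with both its probes counted. Of the 29 measured members 19 lay within 1.5-fold, the matrix receptor chains Itgav, Itgb1, Itga1 and Itga5 among them. The part of stellate cells in the values was not tested.

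The 4 genes named for binding integrin tails held 2 measured members, both near 0. Itgb1bp1, whose product ICAP-1 restrains beta1 activation, read 0.425 and 0.407 (-0.06), and Itgb3bp, a centromere protein, 0.981 and 0.945 (-0.05). Itgb1bp3, now named Nmrk2, encodes a kinase of nicotinamide riboside and was below background on both arrays.

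Partner genes were read from lists of ligands, receptors and adaptors. Among matrix ligands of integrins, 8 of 15 measured genes were higher, 4 were lower, and the median was 0.93. Of all genes, 8.42% were higher and 13.4% lower. The fibrillar collagens Col1a1 (3.19-fold) and Col1a2 (2.44-fold), the phosphoprotein Spp1 (2.64-fold) and the matricellular protein Ccn2 (2.61-fold) led. Col1a1 and Col1a2 are also on the stellate cell list, so these lists are not separate observations. Ltbp1 and Fbn1 were at least 1.60-fold and 1.59-fold higher. The 4 lower genes, named after their values were seen, were plasma ligands made by hepatocytes: Fn1 (1.71-fold), Fgg (1.63-fold), Fga (1.59-fold) and Vtn (a log2 difference of -0.59). The median of the hepatocyte markers moved from -0.11 to 0.27 with quantile and 0.28 with loess normalization. Values of these plasma ligands under those settings are not given. With only brighter probes kept, the median of the matrix ligands turned to -0.43 over 11 genes, and with normexp it was 0.30. Membrane partners had 7 of 13 higher and 0 lower (median 0.78), with the galectin Lgals3 at 3.18-fold, the tetraspanins Cd63 at 2.55-fold and Cd9 at 2.06-fold, and Slc3a2, which joins beta tails and amino acid transporters, at 2.25-fold.

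Of 11 measured basement membrane partners of laminin, 3 were higher and 1 was lower, and their median of -0.11 was that of all genes. The collagen IV chains Col4a1 (2.07-fold) and Col4a2 (1.71-fold) and the laminin linker Nid1 (1.78-fold) were higher, like Lamb1, whereas Nid2, the other nidogen, was 2.66-fold lower. Laminin receptors other than integrins had 2 of 10 higher and 1 lower (median -0.12), with the sarcoglycans Sgcb (1.87-fold) and Sgce (1.54-fold) higher, the syndecan Sdc4 1.70-fold lower and Bcam at 0.30. Cell-surface ligands had 3 of 10 higher and 2 lower (median 0.20). Vcam1, the ligand of alpha4 chains, was 2.08-fold higher, Jam3 2.36-fold and Cdh1 2.01-fold, while Madcam1, the ligand of alpha4-beta7, was 2.02-fold lower. Icam1, a ligand of the beta2 integrins, was at least 3.10-fold higher, and Icam4 at least 2.44-fold lower.

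The intracellular machinery differed less. Of 23 measured adaptors and kinases of the adhesion complex, 22 lay within 1.5-fold, with a median of 0.10. Vinculin (Vcl) was 1.63-fold higher, Lims1 (0.50), Tns3 (0.44) and Fyn (0.42) came next, and Nedd9 was at least 1.55-fold higher. Of 15 measured activators and inhibitors, 13 lay within 1.5-fold (median 0.11). Cytip, a regulator of leukocyte adhesion, was 2.08-fold higher and Rasgrp2, which activates Rap1, 2.21-fold lower, next to Apbb1ip (0.52) and Sharpin (-0.49).

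**Figure D4:**
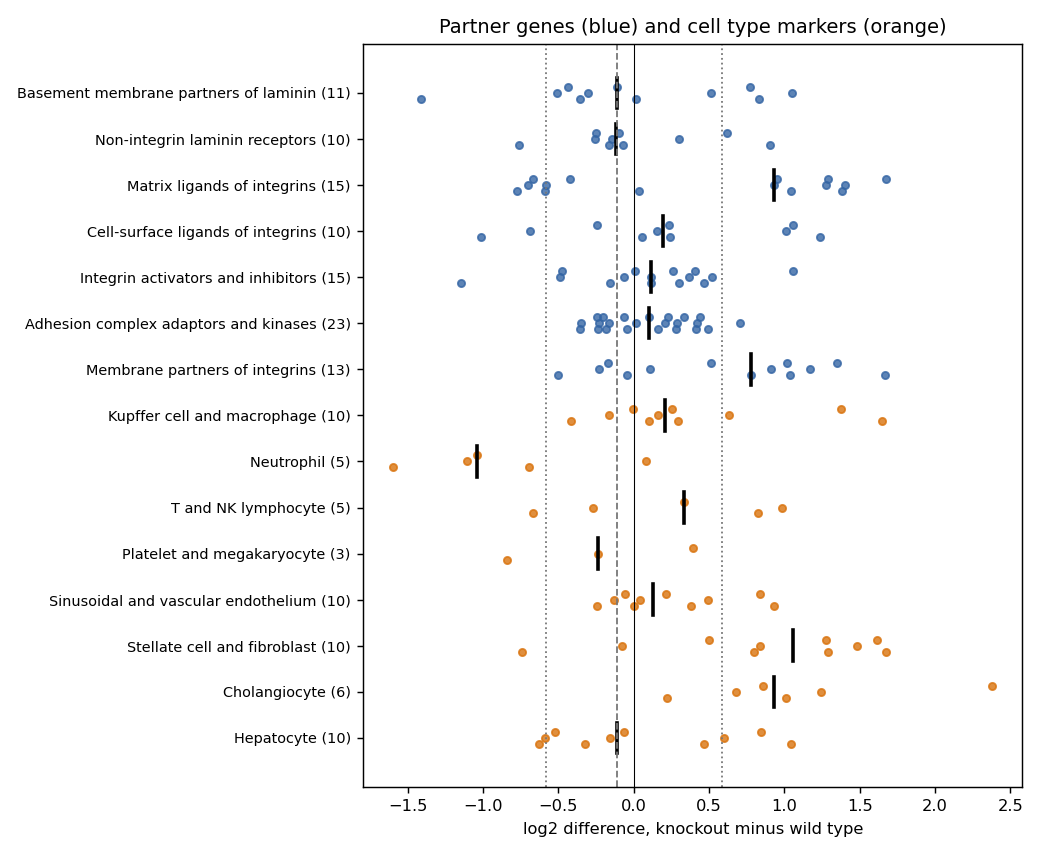
Log2 difference (x axis) of each measured gene in the partner lists (blue) and in the cell type marker lists with at least 3 measured genes (orange), with black bars for list medians, a dashed line at the median of all genes and dotted lines at 1.5-fold. Number in brackets gives the genes measured; matrix ligands, membrane partners, stellate cell and bile duct markers lie to the right, neutrophil markers to the left, and adhesion adaptors near 0.

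Promoter sequences from RefSeq (GRCm38.p6) were matched by symbol for 26 of the 42 members, in 29 promoters, and the 250 bases before the start site were searched on both strands. The motifs were picked after the values were known. TGANTCA, which AP-1 factors bind, was in 1 member promoter (3.45%) and in 6.75% of all 32851 promoters. That promoter belongs to Itgax and is shown because Itgax had the highest difference among the integrins, with the match in capitals, its first base 56 bases upstream of the start. GAGGAA, a core of Ets family sites, was in 14 member promoters (48.3%) and in 23.3% of all. Members holding it included Lama2 and Lamb1, which were higher, Lamb3 and Itgam, which were lower, and Itgav and Itgb1, which lay near 0. A match is a run of letters and not a binding site.
Itgax, chr7:128129300-128129549, plus strand: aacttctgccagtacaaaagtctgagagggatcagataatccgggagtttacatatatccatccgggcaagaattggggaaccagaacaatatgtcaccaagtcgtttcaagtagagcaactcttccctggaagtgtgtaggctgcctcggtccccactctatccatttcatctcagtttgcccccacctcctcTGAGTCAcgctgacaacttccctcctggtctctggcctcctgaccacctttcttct

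**Figure D5:**
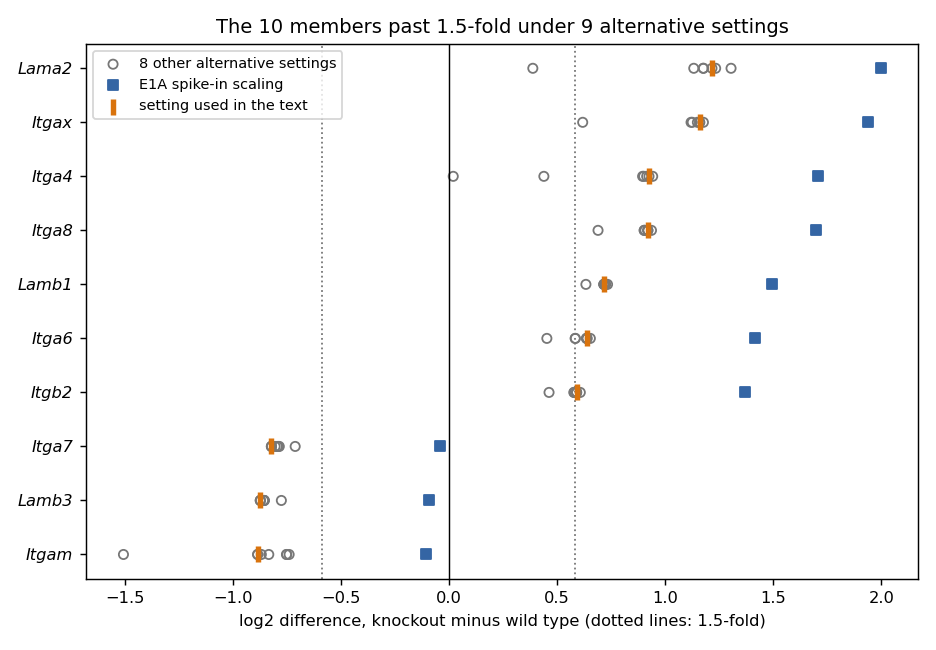
Log2 difference (x axis) of the 10 members past 1.5-fold in the setting used in the text (orange bar), under E1A spike-in scaling (blue square) and under the 8 other alternative settings (open circles). Signs were kept by all 10, while Itga4 ran from 0.02 to 1.70 and Lama2 from 0.39 to 2.00, and under spike-in scaling the 3 lower members lay between -0.11 and -0.04.

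Of these 10 members, Itga8 and Lamb1 stayed past 1.5-fold in all 9 alternatives, and Itgax in all 8 that gave it a value. Itgam, Itga7 and Lamb3 did so in 8 of 9, missing it under spike-in scaling, and Lama2 in 7 of 8, missing it with normexp (0.39). Itga4 kept it in 6 of 8, Itga6 in 6 of 9 and Itgb2 in 5 of 9. Itga8, Lamb1, Itgax, Itga7, Lamb3 and Itgb2 have 1 probe each. For them the filter settings and the brightest-probe setting repeat the same value or give none, and so check nothing. The brightest-probe setting also repeats the values of Itgam, Lama2 and Itga4, and the stricter filter that of Itgam. Median and spike-in scaling add a constant to every gene (0.02 and 0.78), so the higher members could not fail them. Quantile normalization and the value table gave nearly the same values, as for Itga8 (0.906 and 0.902).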

How the data were processed

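Total liver RNA of 1 wild type and 1 Drp1 knockout sample was labelled with Cy3 and hybridised to Agilent mouse arrays on 1 slide, per the labels. The deposited scanner files hold spot intensity, background-subtracted and detrended by Agilent Feature Extraction, per the file headers (module version 10.7.1.1; version 9.5.1.1 per the submitters' processing notes). The deposited value table holds linear intensity with near-equal quantiles and was an alternative. Here signals were divided by the array's 75th percentile over gene spots and log2-transformed. Gene differences average the probes well above background on both arrays. For a probe seen on 1 array, "at least N-fold" sets its bright value against the dim array's lowest value well above background, or against the dim value where that is larger. Probes not marked can read above that lowest value, as the Lama3 probe at position 10278 did in the wild type (0.0680 against 0.0593). Such a bound is therefore a convention and not a strict minimum. Probes were named by accession through RefSeq (26761 probes), by symbol (4453) or by the file (8215), and members by the file's name. Alternatives were quantile, median, loess (span 0.3, statsmodels 0.14.6) and E1A spike-in scaling, normexp (offset 50, limma 3.58.1), the value table, 1 probe per gene (the brightest), no filter, and a stricter filter (probes above the 25th percentile on both arrays). In arrays simulated from the 15385 measured genes of this comparison, 200 of 200 genes changed by at least 2-fold were found past 1.5-fold. So was 1 unchanged gene. The simulation does not bear on members that differ by less than 2-fold. With 1 array per group the spread between animals is unknown, so it gives no error rate for the 1.5-fold calls. The members and lists were chosen with earlier results of these data known. All members may be named. From each partner list up to 4 measured genes with the greatest difference and up to 2 bounds are named, and from each marker list up to 3 and those below background on both arrays. Fn1, Fgg, Fga, Vtn, Cftr, Clec4f and Dcn fall outside this rule and were named after their values were seen. The number of arrays limits the precision. Values of 1 member are not reported here.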

Additional observations from a re-analysis of the deposited data

How the results depend on the processing

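No paired analysis was possible because each group held 1 array. No member past 1.5-fold changed sign in any of the 9 alternatives. The higher members could not do so under median or spike-in scaling, which raise every gene by a constant. Of 251 member differences recomputed, 196 moved by less than the spot error of 0.14, 55 moved by more and 0 of those past 1.5-fold reversed. The 196 include values that could not move, since the filter and brightest-probe settings repeat the value of a gene with 1 probe. Under E1A spike-in scaling, which adds 0.78 to every gene, 24 members were at least 1.5-fold higher, 0 lower and 12 at least 2-fold higher, with a member median of 0.85. With normexp the counts were 3 at least 1.5-fold and 0 at least 2-fold higher, and likewise 3 and 0 with the stricter filter on dim probes, which kept 19 members. Of all 11488 genes kept by the stricter filter, 5.7% were at least 1.5-fold higher and 11% lower. Shares of all genes at 2-fold are not given for the alternatives, so the 2-fold member counts here have no background. Without a filter 9 members were at least 1.5-fold lower, and at 2-fold 5 were higher and 1 lower, among them genes below background on both arrays, while 37.5% of all 30152 genes were at least 1.5-fold lower. The stricter filter also turned the medians of the matrix ligands (-0.43) and of the adipocyte markers (0.015, from -2.53). The adipocyte median covered 2 measured genes, Cfd (-5.07) and Fabp4 (0.015), and that filter left only Fabp4. For the matrix ligands, the cause beyond fewer genes being kept was not tested. Loess moved the all-gene median by 0.11, and dropping the filter by -0.20. Signal over background limits the reading of 13 members that 1 or both arrays did not measure.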

Other observations

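Of probes that passed background only in the wild type, 60 belonged to genes with another probe measured on both arrays, and 10 of them, the Itgam probe at position 3410 included, were at least 8-fold lower by the background limit. The same count for probes that passed only in the knockout was 762, with 3 of them at least 8-fold higher. Among member probes, 13.3% passed background only in the knockout and 1.67% only in the wild type, against 7.74% and 1.15% of all probes.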
